A study of Mus musculus with 8 samples.

Results

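RNA for 10 genes of the TGF-beta pathway was followed in 4T1 cells, an established mouse mammary carcinoma line, carrying a control shRNA or an shRNA against Etv5. The genes were taken by symbol from a table of 24787 rows, and all 10 have a row. They are the ligands Tgfb1, Tgfb2, Tgfb3 and Inhba, the receptors Tgfbr1, Tgfbr2 and Tgfbr3, the signal transducer Smad3, and the inhibitors Smad7 and Skil. The 8 libraries are 4 with the control shRNA, labelled WT, and 4 with the Etv5 shRNA, labelled as the Etv5 knockdown. The column names give each group 1 construct name, so a difference between groups is a difference between 2 constructs. No label says whether the replicates were separate cultures or whether a line was 1 clone, so p-values measure the spread between these libraries, which may be technical. The study's title places tumour ETV5 beside suppressive myeloid cells and resistance to checkpoint inhibitors.

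TGF-beta ligands are secreted in a latent form, bound to their own propeptide and to latent TGF-beta binding proteins, and are released by integrins, proteases or thrombospondin. The active dimer binds the type II receptor TGFBR2, which phosphorylates the type I receptor TGFBR1, and this kinase phosphorylates SMAD2 and SMAD3, which enter the nucleus with SMAD4. TGFBR3, also called betaglycan, is a co-receptor without kinase activity that presents TGF-beta, above all TGF-beta 2, to TGFBR2. In mammary tissue the pathway is known for restraining the growth of normal epithelium, and in carcinoma for driving epithelial-mesenchymal transition and suppressing immune cells.

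Each value is read as a gene's mean coverage per base after scaling for depth, here called its coverage value. How coverage was averaged is not stated, so comparisons between genes rest on this reading. Read depth is unknown. Coverage values summed to between 254792 and 390495 per library. The highest sum and the fewest genes above 0 (13920, against 15126 to 15379 in the other 7) were those of Etv5 shRNA replicate 3, where ribosomal protein genes held 21.7% of the sum against 7.85% to 11.9% elsewhere. This library stood apart, so results are given with and without it. Control shRNA replicate 3 came next in each respect, with a sum of 308393, 15126 genes above 0 and 11.9% ribosomal protein genes. It stayed in the fits that left out Etv5 shRNA replicate 3. Etv5 itself had values of 11.7 to 15.2 in the controls and 7.52 to 13.0 with its shRNA. These ranges overlapped (exact permutation test, two-sided, p = 0.0857, smallest attainable 0.0286), so the knockdown was not resolved at the RNA level and the groups are named by their labels. Its log2 fold change was -0.33 over 8 libraries (adjusted p 0.819 by limma) and -0.17 without replicate 3 (adjusted p 0.422). The Etv5 values are uncertain because 26.8% of the 50-base stretches of its transcript also occur in Gm4798. Of 8 epithelial markers 7 reached 0.5 in at least 4 libraries (Krt5 did not), and no leukocyte marker of 8 and no endothelial marker of 5 did.

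The promoters of the members were taken from RefSeq (assembly GRCm38.p6) as the 250 bases before a transcription start. Entries matched 6 members (Tgfb1, Tgfb2, Inhba, Tgfbr1, Tgfbr2 and Smad3) with 7 windows, and Tgfb3, Tgfbr3, Smad7 and Skil were not matched. The windows of Tgfb1 (chr7:25686752-25687001, plus strand) and Smad3 (chr9:63757995-63758244, minus strand) are shown because, among the matched members, these had lower values in most or all Etv5 shRNA libraries. The capitals mark the GC box GGGCGG on either strand.
Tgfb1 promoter: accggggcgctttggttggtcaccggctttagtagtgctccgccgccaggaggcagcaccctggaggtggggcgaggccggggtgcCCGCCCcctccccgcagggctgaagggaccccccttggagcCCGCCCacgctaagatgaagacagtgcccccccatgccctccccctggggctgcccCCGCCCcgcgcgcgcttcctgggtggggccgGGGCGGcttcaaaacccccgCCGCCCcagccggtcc
Smad3 promoter: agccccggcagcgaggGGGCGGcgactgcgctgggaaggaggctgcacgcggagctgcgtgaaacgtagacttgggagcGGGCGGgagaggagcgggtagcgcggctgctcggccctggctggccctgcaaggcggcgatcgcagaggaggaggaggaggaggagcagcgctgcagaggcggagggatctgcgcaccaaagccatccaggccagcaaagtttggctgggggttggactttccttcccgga
The Tgfb1 window held 5 GC boxes and was 75.2% G and C, and the Smad3 window held 2 and was 69.2% G and C. A GC box was found in 32.7% of 32851 promoter windows of that length. None of the 7 windows held the ETS motif CCGGAAG (6.91% of all windows), the AP-1 motif TGANTCA (6.75%), the NF-kB motif (1.41%) or the palindromic SMAD motif GTCTAGAC (0.167%). Both strands were searched. A TATAAA stretch (12.4% of all windows) lay in the windows of Tgfb2 and Inhba. A match or its absence describes these letters in this window only.

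In the controls Smad3 had the highest coverage value of the 10 genes, at 46.3 ± 5.41 (SD, n = 4), followed by Tgfb1 (37.7 ± 4.43) and Tgfbr2 (32.7 ± 5.06). The range of Smad3 (39.6 to 52.7) overlapped that of Tgfb1 (31.1 to 40.5), and that of Tgfb1 overlapped that of Tgfbr2 (25.2 to 36.2). Skil stood apart from its neighbours in this order at 18.4 ± 1.81. Tgfbr1 (12.0 ± 1.67) and Smad7 (11.6 ± 0.877) overlapped. Below them, each without overlap with the next, lay Tgfb3 at 6.75 ± 0.378, Inhba at 4.14 ± 0.677, Tgfbr3 at 3.00 ± 0.216 and Tgfb2 at 0.303 ± 0.0807 (SD, n = 4 each).

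**Figure D1:**
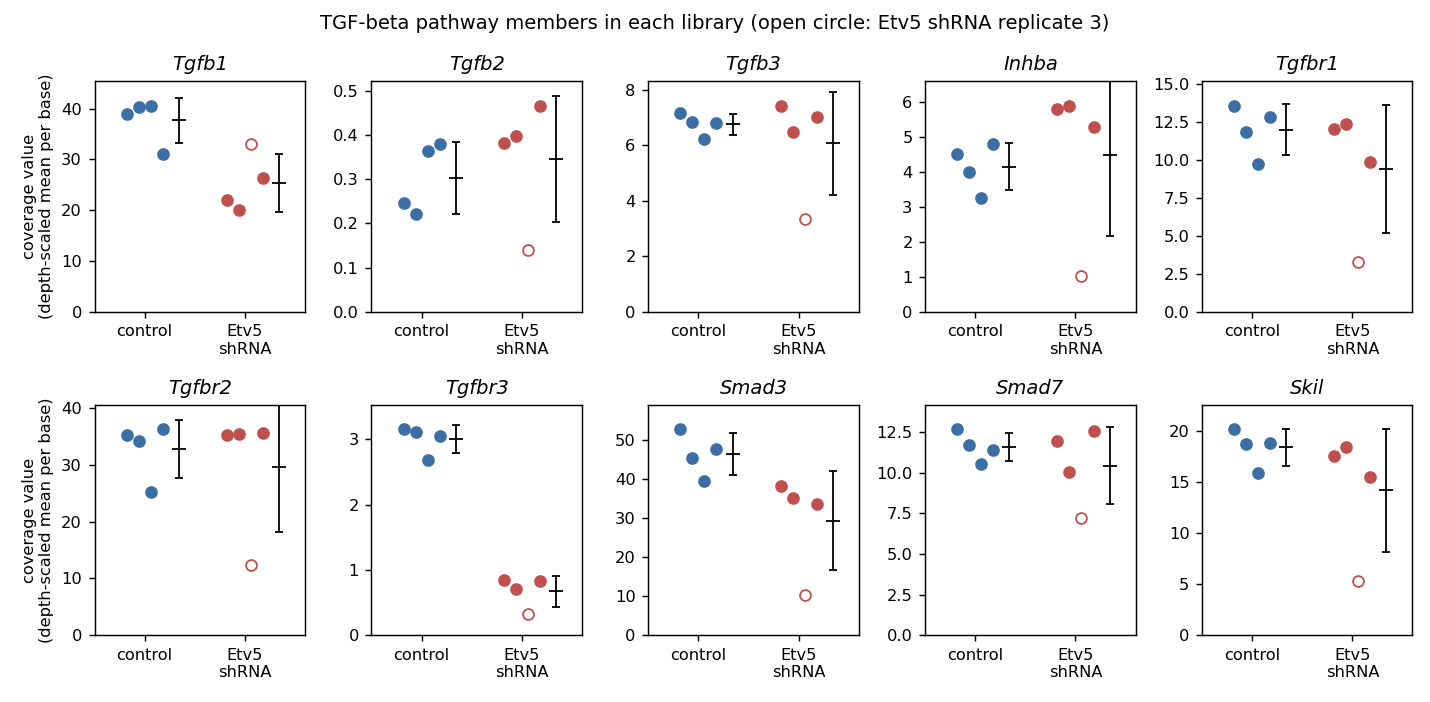
Coverage value of each member in each library, on linear axes from 0, with blue points for the control shRNA, red points for the Etv5 shRNA, an open circle for Etv5 shRNA replicate 3, and black bars for the mean ± SD (n = 4). Tgfbr3 and Smad3 are the members whose groups do not overlap over 8 libraries, and the open circle is the lowest point of its group for every gene except Tgfb1.

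Tgfbr3 was the 1 member called as changed over 8 libraries, and it fell. Of the 10 members, 9 had values of at least 0.5 in 4 libraries or more and were tested with limma on log2(value + 1), with p-values adjusted over all 11731 genes tested and a call at an adjusted p under 0.05. Of these 9, 1 was lower, none was higher and 8 were not called, while 0.494% of all genes were called, 0.486% lower and 0.00852% higher. At an unadjusted p under 0.05 by limma, 2 members were lower (Tgfbr3 and Tgfb1) and none was higher, where 5.98% of all genes were lower and 1.11% higher. The groups of 2 members (Tgfbr3 and Smad3) did not overlap, both lower, as in 9.10% of all genes (7.58% lower and 1.52% higher). The members' median log2 fold change was -0.44, against -0.11 over all genes.

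Without Etv5 shRNA replicate 3, Tgfbr3 and Tgfb1 fell, and none of the 9 was called higher. At an unadjusted p under 0.05 by limma, 3 were lower (Tgfbr3, Tgfb1 and Smad3) and 1 was higher (Inhba). At that threshold 10.5% of all genes were lower and 8.38% higher. In those 7 libraries 3.14% of all genes were called, 2.05% lower and 1.08% higher. Groups that did not overlap made up 20.2% of all genes (10.4% lower and 9.76% higher), and among the tested members they were Tgfbr3, Tgfb1 and Smad3, lower, and Inhba, higher. The members' median log2 fold change was -0.062, against -0.0029 over all genes. In bulk RNA, fewer cells with a transcript and less of it per cell cannot be told apart.

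**Figure D2:**
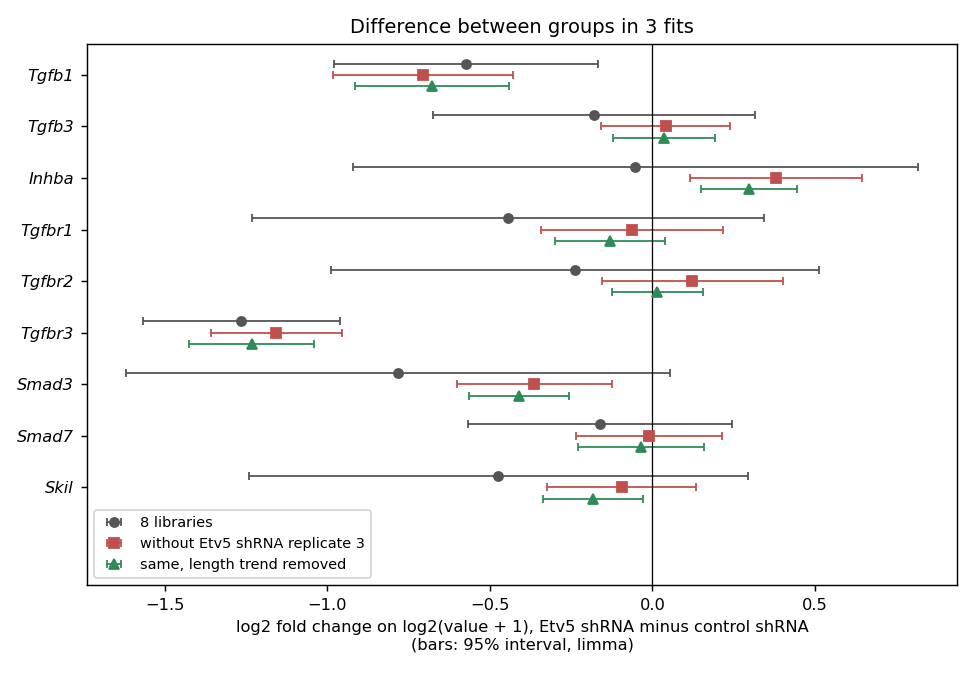
Log2 fold change on the log2(value + 1) scale, Etv5 shRNA minus control shRNA, of the 9 members tested, with 95% intervals from limma, over 8 libraries (circles), without Etv5 shRNA replicate 3 (squares) and without it with the trend by transcript length removed (triangles). Tgfbr3 lies between -1.26 and -1.16 and Tgfb1 between -0.70 and -0.57 in these settings.

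Among the ligands, Tgfb1 encodes the isoform that many tumours secrete. Its coverage values were 38.9, 40.2, 40.5 and 31.1 in control replicates 1 to 4 and 22.1, 19.96, 33.0 and 26.3 in Etv5 shRNA replicates 1 to 4. The groups overlapped through 1 library of each, since Etv5 shRNA replicate 3 was above control replicate 4, and the other Etv5 shRNA libraries were below every control. Over 8 libraries the log2 fold change was -0.57 (limma interval -0.98 to -0.17, adjusted p 0.412), which was not called. Without Etv5 shRNA replicate 3, Tgfb1 fell 1.66-fold, from 37.7 ± 4.43 (SD, n = 4) to 22.8 ± 3.23 (SD, n = 3), with a log2 fold change of -0.70 (SE 0.123, adjusted p 0.0181 by limma). With that library out, the call held with another scaling and with length or length and GC trends removed, and was lost with the replicate number as a block (adjusted p 0.0683 by limma). The range over those settings was 0.00456 to 0.0683. In Etv5 shRNA replicate 2, the lowest library for Tgfb1, deviations of all genes had a rank correlation of -0.548 with GC content, against -0.207 to 0.298 in the other 6 libraries, and its part in this result was not tested beyond the GC setting. Tgfb1 spans bases 25687002 to 25705077 of chromosome 7 (plus strand, mm10).

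Tgfb3 encodes an isoform needed for palate closure. Its values were 6.23 to 7.14 in the controls and 7.42, 6.48, 3.33 and 7.02 with the Etv5 shRNA. The groups overlapped, and replicate 3 was far below all others. The log2 fold change was -0.18 over 8 libraries (adjusted p 0.879 by limma) and 0.041 without that library (95% interval -0.16 to 0.24). Of its 50-base stretches 8.79% also occur in other genes, mainly the antisense Gm48008, and no source used here says that counting used strand. Tgfb2, the isoform that relies most on betaglycan, was at 0.222 to 0.380 in the controls and 0.383, 0.398, 0.140 and 0.467 with the Etv5 shRNA, below the level tested. Tgfb3 spans bases 86056745 to 86079041 of chromosome 12 (minus strand, mm10), and Tgfb2 spans bases 186622792 to 186705989 of chromosome 1 (minus strand, mm10).

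Shares within the 3 TGF-beta ligands, chosen after the values were seen and not tested, also differed by library. Tgfb1 made up 81.3% to 86.0% of their summed coverage in the controls and 73.9%, 74.4%, 90.5% and 77.8% in Etv5 shRNA replicates 1 to 4. The third of these was above all controls and the other 3 were below all controls. Tgfb3 made up 13.2% to 17.7% in the controls and 24.9%, 24.1%, 9.12% and 20.8% with the Etv5 shRNA.

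Inhba encodes the subunit of activin A, a ligand that signals through activin receptors to SMAD2 and SMAD3. Its values were 4.52, 4.00, 3.26 and 4.80 in the controls and 5.79, 5.89, 1.01 and 5.29 with the Etv5 shRNA. Replicate 3 was the lowest of all 8 libraries, and the other 3 Etv5 shRNA libraries were above every control. The log2 fold change was -0.052 over 8 libraries (adjusted p 0.970 by limma) and 0.38 without replicate 3 (95% interval 0.12 to 0.65, adjusted p 0.123), called in neither. Without replicate 3 it was called higher once the length trend was removed (log2 fold change 0.298, adjusted p 0.0259 by limma), where 8.14% of all genes were called, 4.42% lower and 3.72% higher. It was also called higher there with length and GC trends removed (log2 fold change 0.26, adjusted p 0.0305 by limma), where 11.6% of all genes were called, 5.99% lower and 5.57% higher. Inhba spans bases 16011851 to 16031621 of chromosome 13 (plus strand, mm10).

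Among the receptors, Tgfbr3, the betaglycan gene, fell. Its coverage values were 3.15, 3.11, 2.68 and 3.06 in the controls and 0.843, 0.709, 0.329 and 0.825 with the Etv5 shRNA. Every Etv5 shRNA library was far below the lowest control. The means were 3.00 ± 0.216 and 0.677 ± 0.239 (SD, n = 4 each), 4.43-fold lower, and 3.78-fold lower without replicate 3 (0.792 ± 0.0727, SD, n = 3). The log2 fold change was -1.26 (SE 0.134, adjusted p 0.00377 by limma). The log2(value + 1) scale understates a change at this level, and with a pseudocount of 0.1 the log2 fold change was -2.06. The gene was called lower in all 18 alternatives, at adjusted p-values by limma of 0.00129 to 0.0213 over 8 libraries, 0.0156 to 0.0263 with 1 library other than Etv5 shRNA replicate 3 left out, and 6.05e-05 to 0.00304 without that replicate.

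Tgfbr3 spans bases 107106570 to 107289629 of chromosome 5 (minus strand, mm10), and its longest coding transcript has 17 exons and 6087 bases, of which 2550 code. Of its 50-base stretches 4.14% also occur in Gm43422, which overlaps its exons on the same strand. Fibroblasts are a known source of betaglycan, so the 7 fibroblast markers are given here. Their summed coverage was 2.71 to 3.60 in the controls and 0.641 to 2.59 with the Etv5 shRNA. Of the 7 markers 1, Pdgfra, reached 0.5 in at least 4 libraries (2.54 to 3.54 in the controls, 0.519 to 2.15 with the Etv5 shRNA), and it made up most of the sum in every library. Pdgfra had a log2 fold change of -0.74 over 8 libraries (adjusted p 0.435 by limma, not called) and fell by 0.50 on the log2 scale without replicate 3 (adjusted p 0.0452). The markers Dcn and Lum were at 0 in all 8 libraries. Pdgfrb, Col1a1, Col1a2 and Col3a1 were at most 0.357, with the highest values of the 3 collagen genes in Etv5 shRNA libraries. The part of other cells in the Tgfbr3 result was not tested.

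The kinase receptors were not called. Tgfbr2 was 35.2, 34.2, 25.2 and 36.2 in the controls and 35.1, 35.4, 12.3 and 35.6 with the Etv5 shRNA, so that 3 Etv5 shRNA libraries lay within the control range and replicate 3 below it. Its log2 fold change was -0.24 over 8 libraries (95% interval -0.99 to 0.51, adjusted p 0.884 by limma). Without replicate 3 it was 0.12 (95% interval -0.15 to 0.40). Tgfbr1 was 13.6, 11.9, 9.72 and 12.9 in the controls and 12.1, 12.3, 3.30 and 9.87 with the Etv5 shRNA, again with 3 libraries in the control range and replicate 3 below it. Its log2 fold change was -0.44 over 8 libraries (95% interval -1.23 to 0.34, adjusted p 0.879 by limma). Without replicate 3 it was -0.062 (95% interval -0.34 to 0.22). Tgfbr2 spans bases 116084293 to 116175360 of chromosome 9 (minus strand, mm10), and Tgfbr1 spans bases 47353222 to 47414931 of chromosome 4 (plus strand, mm10). These intervals bound a change of either receptor and do not show that there was none.

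A ratio within a library does not depend on its scaling. Tgfbr3 was 8.95%, 9.09%, 10.6% and 8.45% of Tgfbr2 in the controls and 2.3998%, 2.00%, 2.67% and 2.32% with the Etv5 shRNA. All 4 Etv5 shRNA libraries, replicate 3 included, were close together and below every control. Tgfbr1 was 34.7% to 38.6% of Tgfbr2 in the controls and 34.3%, 34.9%, 26.8% and 27.8% with the Etv5 shRNA, and here the groups overlapped. A ratio shows unequal change of its genes only, and these ratios, chosen after the values were seen, were not tested.

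**Figure D3:**
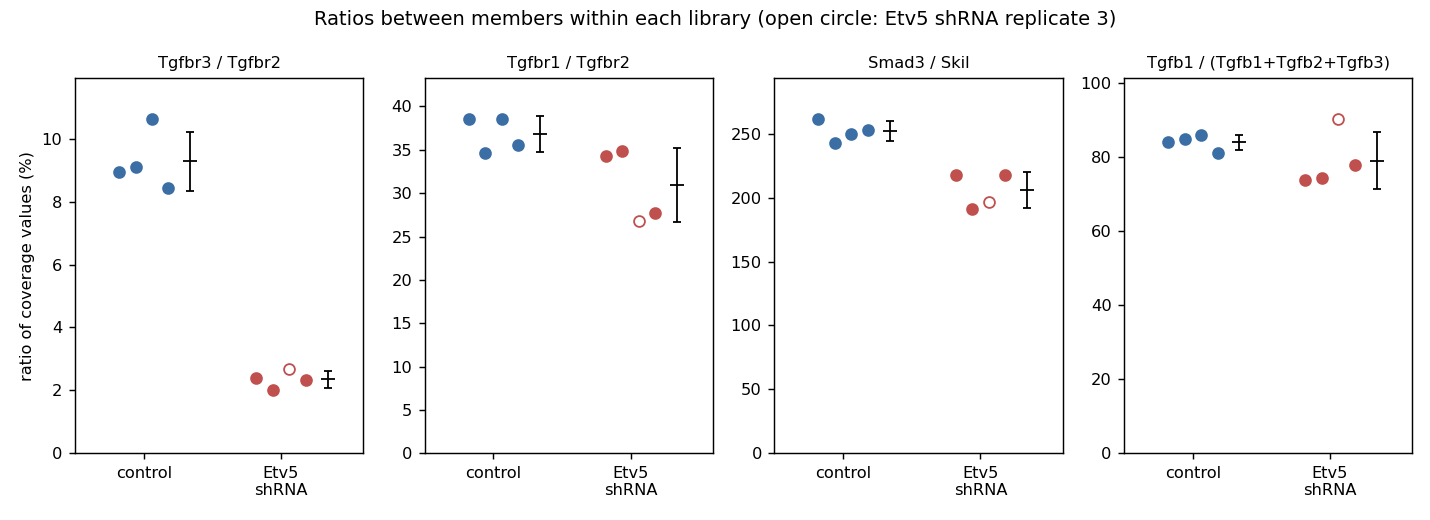
Ratio between members within each library in percent, with blue points for the control shRNA, red points for the Etv5 shRNA, an open circle for Etv5 shRNA replicate 3 and black bars for the mean ± SD (n = 4). Tgfbr3 lies at 2.00% to 2.67% of Tgfbr2 in the Etv5 shRNA libraries and at 8.45% to 10.6% in the controls, whereas the share of Tgfb1 in the 3 ligands is highest, 90.5%, in replicate 3.

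Smad3 encodes a receptor-activated SMAD that binds DNA directly. Its values were 52.7, 45.5, 39.6 and 47.6 in the controls and 38.2, 35.1, 10.5 and 33.7 with the Etv5 shRNA. The groups did not overlap, though the highest Etv5 shRNA library was close to the lowest control. The log2 fold change was -0.78 over 8 libraries (interval -1.62 to 0.054, adjusted p 0.746 by limma) and -0.36 without replicate 3 (interval -0.60 to -0.13, adjusted p 0.107), called in neither. Without replicate 3 it was called lower with the length trend removed (-0.41, adjusted p 0.00934 by limma), with length and GC trends removed (-0.39, adjusted p 0.00661) and with the replicate number as a block (-0.43, adjusted p 0.0430). Smad3 spans bases 63646767 to 63757994 of chromosome 9 (minus strand, mm10).

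Smad7 encodes the inhibitory SMAD, itself induced by TGF-beta, that blocks the type I receptor. Its values were 10.5 to 12.7 in the controls and 11.9, 10.1, 7.22 and 12.5 with the Etv5 shRNA, with a log2 fold change of -0.16 over 8 libraries and -0.010 without replicate 3 (95% interval -0.24 to 0.22, adjusted p 0.967 by limma). Skil encodes SnoN, a co-repressor that binds SMADs and is also induced by the pathway. It was 15.8 to 20.1 in the controls and 17.5, 18.4, 5.31 and 15.5 with the Etv5 shRNA, with a log2 fold change of -0.47 over 8 libraries and -0.095 without replicate 3 (95% interval -0.32 to 0.13, adjusted p 0.648 by limma). The groups of both inhibitors overlapped. Skil spans bases 31095058 to 31122577 of chromosome 3 (plus strand, mm10). Smad3 was 243% to 262% of Skil in the controls and 218%, 191%, 197% and 218% with the Etv5 shRNA, so this ratio, chosen after the values were seen and not tested, was lower in all 4 libraries.

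In Etv5 shRNA replicate 3 itself, 9 of the 10 members were low. Its values were between 0.178 times (Inhba) and 0.627 times (Smad7) the mean of the other 3 Etv5 shRNA libraries, and 1.45 times it for Tgfb1. How many of all genes were low in this library was not counted, so the 9 low members are not set apart from other genes. Across every gene tested, the middle log2 fold change was -0.11 with this library and -0.0029 without it. Control replicate 3 was 1.10 times the mean of the other 3 controls for Tgfb1 and 1.29 times it for Tgfb2. For the remaining members it lay between 0.716 times (Tgfbr2) and 0.901 times (Tgfb3) that mean. Tgfb1 has the shortest transcript of the 10, at 2175 bases, and the others have 3383 to 8092. With the length trend removed over 8 libraries, Tgfbr3 was at -1.07 (adjusted p 0.0179 by limma), Smad3 at -0.60 (0.1995) and Tgfb1 at -0.48 (0.348). Tgfbr3 was again the 1 member called, where 0.998% of all genes were called, 0.800% lower and 0.198% higher.

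**Figure D4:**
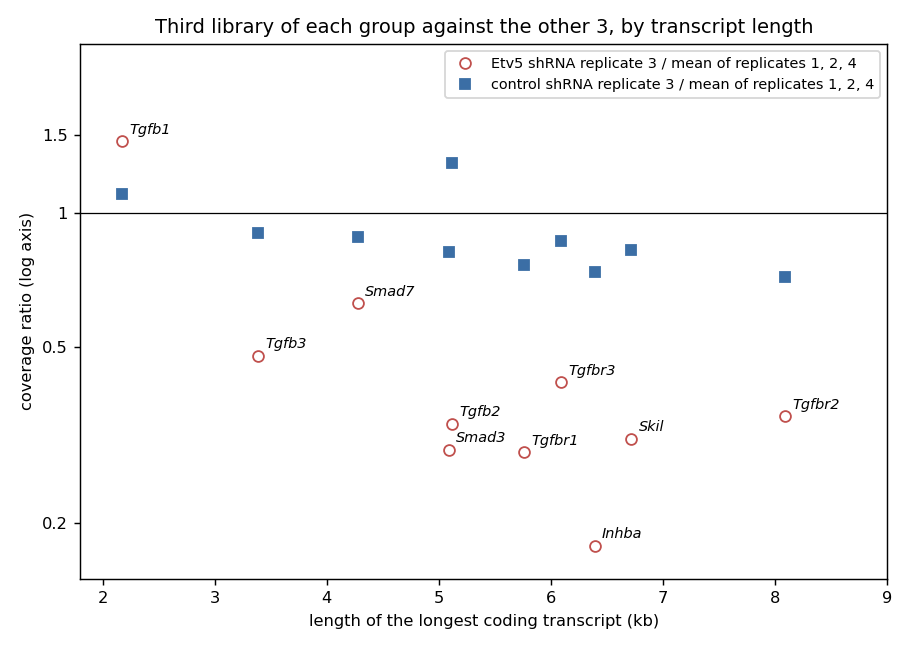
Coverage of the third library of each group divided by the mean of the other 3 libraries of that group (log axis) against the length of the longest coding transcript, for the 10 members, in the Etv5 shRNA group and the control group. In the Etv5 shRNA group Tgfb1, the shortest, is above 1, at 1.45, and the other 9 lie between 0.178 and 0.627.

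Other genes of the pathway were taken as 6 lists by role, 128 genes in all, of which 127 have a row and 77 were tested. Over 8 libraries 1 was higher, Ctgf, none was lower and 76 were not called (9 lower and 2 higher at an unadjusted p under 0.05 by limma, to be read against the shares of all genes at that threshold given above). Without Etv5 shRNA replicate 3, 6 were lower and 5 higher (14 lower and 13 higher at an unadjusted p under 0.05 by limma). Of all genes, 2.05% were called lower and 1.08% higher there (10.5% and 8.38% unadjusted). The counts of each list below are to be read against these shares. The median log2 fold change of the 77 genes was -0.22 over 8 libraries and 0.078 without replicate 3, beside the medians of all genes given above.

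Of 26 other ligands of the family 3 were tested and none was called with or without replicate 3 (over 8 libraries 0 at an unadjusted p under 0.05 by limma, and 1 higher without replicate 3). Bmp7, a bone morphogenetic protein gene, was 9.28 ± 0.885 in the controls and 10.8 ± 1.82 with the Etv5 shRNA, and Gdf11, an activin-like ligand gene, 2.20 ± 0.413 and 2.13 ± 0.508 (SD, n = 4 each). The other 23 lay below the level tested, 12 of them at 0 in all libraries.

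Genes for latency, activation and extracellular traps had 13 tested of 24, with none called over 8 libraries (4 lower and none higher at an unadjusted p under 0.05 by limma), and 3 lower and 1 higher without replicate 3. At that unadjusted threshold, 6 were lower and 3 higher without replicate 3. Ltbp2, of the latent TGF-beta binding protein family, was 36.3, 28.8, 20.8 and 31.5 in the controls and 14.6, 13.1, 5.89 and 13.9 with the Etv5 shRNA, and the groups did not overlap. Its log2 fold change was -1.28 over 8 libraries (adjusted p 0.166 by limma) and -1.002 without replicate 3 (adjusted p 0.0112). Over 8 libraries it was called lower with the length trend removed (adjusted p 0.00196 by limma) and with the replicate block (0.0225). Without replicate 3, Itgb5, an integrin subunit gene, fell from 40.9 ± 1.73 (SD, n = 4) to 30.7 ± 2.61 (SD, n = 3, adjusted p 0.0388 by limma), a call lost when the replicate block was added (0.0680). Nbl1, which encodes a secreted antagonist of bone morphogenetic proteins, fell from 10.8 ± 0.609 to 7.30 ± 0.691 (adjusted p 0.0214 by limma). Thbs1, whose product thrombospondin 1 activates latent TGF-beta, rose from 42.1 ± 7.77 to 73.9 ± 1.91 (adjusted p 0.0152 by limma), while in replicate 3 itself it was 16.5, below every control.

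None of 9 tested receptors and co-receptors besides the members was called with or without replicate 3 (0 at an unadjusted p under 0.05 by limma in both). The co-receptor genes Rgmb and Rgma and the activin type I receptor gene Acvr1b had log2 fold changes of -0.43, -0.29 and -0.61 over 8 libraries and -0.13, -0.029 and -0.092 without replicate 3. None of 12 other SMADs and SMAD partners was called either (1 lower at an unadjusted p under 0.05 by limma in each set). The inhibitory Smad6 was 2.63 ± 0.0997 in the controls and 1.87 ± 0.509 with the Etv5 shRNA (SD, n = 4 each), and 2.11 ± 0.213 without replicate 3 (SD, n = 3). The BMP-activated Smad1 was 16.3 ± 0.0429 and 12.8 ± 4.41, and 15.001 ± 1.08 without replicate 3, and Smad5 was 15.3 ± 1.31 and 12.9 ± 2.98, and 14.3 ± 1.11 without it. Leaving out that library moved the log2 fold changes from -0.36 to -0.23 for Smad6, from -0.39 to -0.11 for Smad1 and from -0.25 to -0.087 for Smad5.

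Of 16 inhibitors and turnover factors none was called over 8 libraries (1 lower at an unadjusted p under 0.05 by limma), and 1, Sik1, fell without replicate 3. At that unadjusted threshold, 1 was lower and 4 were higher without replicate 3. Sik1, a kinase gene induced by TGF-beta, went from 8.03 ± 1.04 (SD, n = 4) to 5.09 ± 0.474 (SD, n = 3, adjusted p 0.0322 by limma). The co-repressor gene Tgif2 had a log2 fold change of -0.26 over 8 libraries, and Strap, whose product binds TGF-beta receptors, of 0.203 (adjusted p 0.781 and 0.863 by limma).

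Of 32 genes that SMADs are known to induce, 24 were tested, and over 8 libraries 1 was higher and none lower (3 lower and 2 higher at an unadjusted p under 0.05 by limma). Ctgf, a matricellular protein gene also driven by YAP, rose from 33.7 ± 3.28 to 59.2 ± 5.18 (SD, n = 4 each, adjusted p 0.0442 by limma). Leaving out any 1 library besides Etv5 shRNA replicate 3 ended this call (adjusted p 0.0901 to 0.240 by limma), as did a pseudocount of 0.1 (0.0541) and the replicate block (0.106), while without Etv5 shRNA replicate 3 it was 0.00134. Without replicate 3, 4 rose, Ctgf, Atf3, Cyr61 and Bhlhe40, and 2 fell, Mmp9 and Il11 (6 lower and 5 higher at an unadjusted p under 0.05 by limma). Atf3, a stress-induced transcription factor gene, went from 4.33 ± 0.469 to 7.33 ± 0.382, and Cyr61, a relative of Ctgf, from 22.2 ± 0.751 to 33.6 ± 2.42. Bhlhe40, a transcriptional repressor gene, went from 14.2 ± 0.867 to 20.4 ± 1.77. In replicate 3 itself Cyr61 was 15.3 and Bhlhe40 7.80, below every control, and over 8 libraries their log2 fold changes were 0.302 and 0.17 (adjusted p 0.879 and 0.892 by limma). Mmp9, a gelatinase gene, went from 118 ± 9.20 to 80.4 ± 4.78, and Il11, a cytokine gene, from 1.38 ± 0.170 to 0.756 ± 0.0441 (SD, n = 4 and 3). With the replicate block, again without replicate 3, the calls of Bhlhe40 (adjusted p 0.0566 by limma) and Il11 (0.0896) were lost. Each of these genes is also controlled by other pathways.

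**Figure D5:**
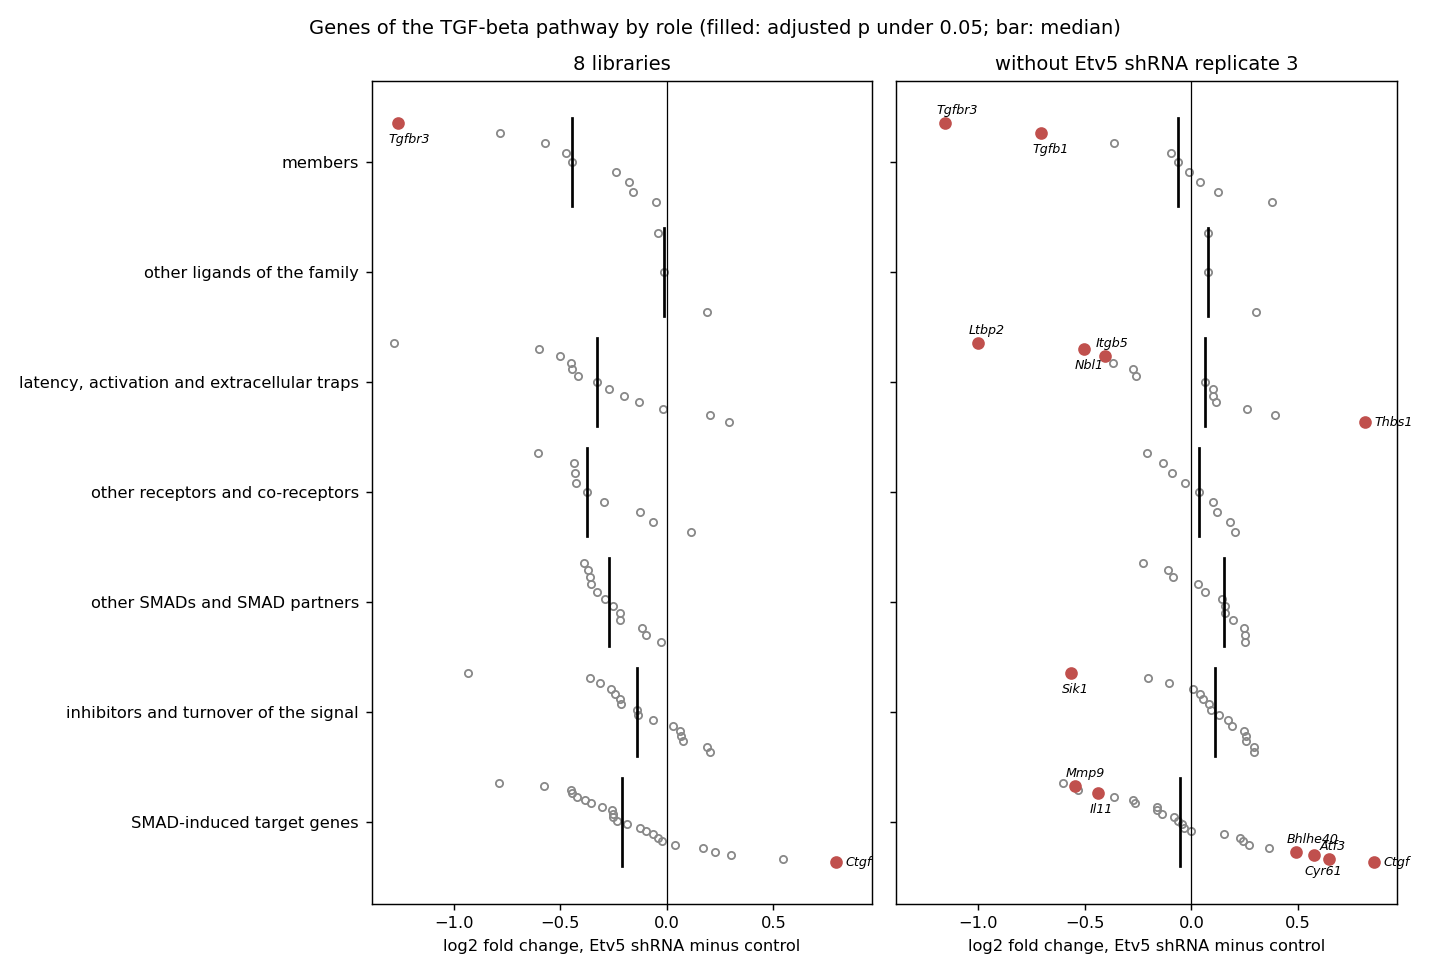
Log2 fold change of each tested gene on the log2(value + 1) scale, Etv5 shRNA minus control shRNA, by role in the pathway, over 8 libraries (left) and without Etv5 shRNA replicate 3 (right), with genes at an adjusted p under 0.05 by limma named and the median of each list drawn as a bar. Tgfbr3 and Ctgf are called on the left, and on the right 2 members and 11 other genes.

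The genes whose profile over the 8 libraries lay nearest to that of Tgfbr3, by root mean square distance of log2(value + 1) centred on the control mean, were Serpine2 (0.0917), Prnd (0.103) and Gm14023 (0.111). Serpine2, a serine protease inhibitor gene, was 47.6 to 48.3 in the controls and 16.8 to 20.2 with the Etv5 shRNA. Prnd, which encodes the prion-like protein doppel, was 2.54 to 2.90 and 0.3005 to 0.866. By group means Serpine2 was 2.52-fold lower, Prnd 4.30-fold and Gm14023 6.71-fold, against 4.43-fold for Tgfbr3. Nearness on the log2(value + 1) scale is therefore not an equal fold change. For Tgfb1 the nearest were the adaptor gene Grap (0.0784), the adenylosuccinate synthase gene Adssl1 (0.0948) and the cold-inducible RNA binding protein gene Cirbp (0.0958). In these 3, as in Tgfb1, replicate 3 was the highest of the Etv5 shRNA libraries. Nearness describes these 8 libraries only and carries no test.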

How the data were processed

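The members and gene lists were chosen with earlier results of these data known. RNA of 4 control shRNA and 4 Etv5 shRNA libraries was sequenced, per the labels' protocols. Reads were aligned with STAR 2.7.10a to mm10, per the submitters' processing notes. The deposited values are a signal, since the columns derive from coverage tracks per the file headers, and they behave as mean coverage per base. How coverage was averaged, and over which annotation, is not stated in those sources. No counting interval is given.

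On log2(value + 1), limma 3.58.1 (R 4.3.3, intensity trend, no covariate) compared the groups, over genes with at least 0.5 in 4 libraries or more. Benjamini-Hochberg adjustment covered every gene tested. Alternatives changed the scaling, filter or pseudocount, added a replicate block, removed length or GC trends (lowess), or left out a library. Settings that combine a block, median-of-ratios scaling or a GC trend with leaving out Etv5 shRNA replicate 3 were chosen after seeing the data. Lengths came from GENCODE M21, with 98.3% of rows matched. Named genes are every member, Etv5, the genes of each list called over 8 libraries, its 3 lowest in p whose higher group averages 2 or more, and, for the 2 members lowest in p, their 3 nearest profiles. Thbs1, Cyr61, Bhlhe40, Il11 and Pdgfra fall outside this rule and were chosen after their values were seen. The 26 symbols turned into dates were tested and not named.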

Additional observations from a re-analysis of the deposited data

Results flagged for a closer look

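A library was singled out where its distance to the nearest of its 3 group members took up more of the group's whole range than Dixon's critical value at 95% allows. Of 56 groups looked at, over the members, Etv5 and the pathway genes named by rule, 4 held such a library, where chance gives about 2.8. In all 4 it was Etv5 shRNA replicate 3, as the lowest value. These were Tgfbr2 (12.3, ratio 0.981), Inhba (1.01, ratio 0.877), Smad3 (10.5, ratio 0.839) and, outside the members, Acvr1b (0.195, ratio 0.922), the ratio being distance over range.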

How the results depend on the processing

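Tgfbr3 was called lower in all 18 alternatives. Genes called lower numbered 57, or 37 at a pseudocount of 0.1, 93 once the length trend was removed and 28 to 241 when 1 library was left out. Genes called higher numbered 1, or 7 with median-of-ratios scaling, 3 without a filter, 23 once the length trend was removed, 0 at a pseudocount of 0.1 (134 at an unadjusted p under 0.05 by limma) and 0 to 127 when 1 library was left out. Median-of-ratios scaling shifted the middle of all log2 fold changes from -0.11 to 0.023, with 49 genes lower beside those 7 higher. The 4 combined settings also leave out Etv5 shRNA replicate 3, and are given in the order length trend removed, replicate block, median-of-ratios scaling, length and GC trends removed. They gave 514, 211, 230, 696 genes lower and 432, 80, 131, 648 higher, with 3, 2, 2, 4 members lower (1 over 8 libraries, 1 to 2 when 1 library was left out). The fourth member was Skil (-0.22, adjusted p 0.0379 by limma). Inhba was the 1 member called higher, in the first and last of them.

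Over leave-one-out, log2 fold changes spanned -0.21 to 0.38 for Inhba, -0.28 to 0.041 for Tgfb3, -0.36 to 0.12 for Tgfbr2 and -0.13 to 0.078 for Gdf11, so that each reversed. Leaving out control replicate 4 put Inhba at 0.0094, and leaving out control replicate 1 put Gdf11 at 0.020. The combined settings, in the same order, gave 0.298, 0.29, 0.39 and 0.26 for Inhba, 0.036, 0.0083, 0.050 and 0.050 for Tgfb3 and 0.016, 0.0069, 0.13 and 0.0050 for Tgfbr2. Gdf11 was 0.057, 0.086 and 0.069 in those other than the block. Over 8 libraries, median-of-ratios scaling gave 0.052 for Inhba and 0.072 for Gdf11, and removing the length trend 0.14 and 0.11. Smad7 (0.014) and Rgma (0.042) reversed in the last combined setting. The cause was not tested.

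Same-numbered libraries deviated together at correlations of 0.549, 0.0924, 0.794 and 0.510 for replicates 1 to 4, and control replicates 2 and 4 did not correlate best with their own number, so the numbers were not taken as pairs. With the replicate block over 8 libraries, 50 genes were lower and 1 higher, and Tgfbr3 was at -1.26 (adjusted p 0.00974 by limma). The unknown read depth limits statements on genes of low value, Tgfb2 above all, and on the size of the Tgfbr3 change.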
